A study of Mus musculus with 38 samples.

Results

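The comparison asked how the liver's response to propiconazole on day 30 differed from its response on day 4, that is, which early changes faded, which persisted and which appeared late. For every gene, the change on a day was the mean of propiconazole livers minus the mean of control livers of that day, and the quantity reported is the day 30 change minus the day 4 change. It used 12 of the 38 arrays of the study, the 4 groups of 3 livers named 30DayPropi, 30DayConazoleControl, 4DayPropi and 4DayConazoleControl, chosen by their labels. One Affymetrix whole-genome mouse expression array was run per liver, and the labels call the 3 livers of a group biological replicates. All mice were male CD-1 mice, an outbred stock, labelled 6 to 8 weeks old. Propiconazole was mixed into the feed at 2500 ppm, a mean intake of 349.6 ± 46.7 mg/kg/day, and control mice received control feed, each for 30 or 4 days. The 26 remaining arrays, of triadimefon, phenobarbital and a second set of controls, entered only the normalization and the estimate of each gene's spread.

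Propiconazole is a triazole fungicide that blocks the sterol 14-demethylase of fungi. In rodent liver, triazoles of this kind are known to activate the nuclear receptors CAR and PXR, which switch on cytochrome P450 enzymes and other proteins that oxidise, conjugate and export foreign compounds, and P450 synthesis in turn draws on heme. A sudden load of a foreign compound can also raise chaperones and the unfolded protein response, whose genes fall again as cells adapt, and sustained activation of CAR is known to alter the sex-biased gene expression that growth hormone maintains in mouse liver.

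Values are log2(intensity + 16) after quantile normalization, so that 4.00 is the lowest possible value and 13.71 was the highest. Changes are differences on that scale and understate the change of dim genes. A value above 6.13, the level that 95% of 39 olfactory receptor genes stayed below, is called above background. Where no array of a group read a gene above background, its fold is given as a lower bound, against background or the gene's own value, whichever was higher. Over 17728 genes, limma with Benjamini-Hochberg adjustment called a change, or a difference between changes, at an adjusted p under 0.05.

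The array of 4DayPropi replicate 2 stood apart before any comparison was made. The log2 ratio of the 3′ to the 5′ Gapdh probe sets was 6.39, where the 11 other arrays had -0.10 to 0.22, and its median deposited intensity was 12.5, against 19.2 to 34.5. It correlated with its own group at a mean r of 0.818 across 9313 genes, while replicates 1 and 3 correlated with each other at 0.930 and the 9 arrays of the other groups with their own group at 0.9535 or more. Within-group SD, as the median over genes, was 0.392 in 4DayPropi, against 0.209 to 0.225 in the 3 other groups and 0.223 over the other 26 arrays. The 3′ excess of Actb, a sign of shorter RNA, also differed between the days in both groups: it was 0.35 to 0.47 in propiconazole livers and 0.37 in control livers on day 30, against 0.62 to 1.84 in propiconazole livers and 0.80 to 1.30 in control livers on day 4. The same ratio of the transferrin receptor control did not separate the days, at 1.84 to 3.25 on day 30 and 1.315 to 2.885 on day 4. It was lowest in 4DayPropi replicate 2. The part of these ratios in the results was not tested. Values are with all 12 arrays unless they are marked as without 4DayPropi replicate 2. Hepatocyte identity was clear, with all 8 hepatocyte markers measured above background and none of them called in the difference.

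The difference between the days was called for 345 genes, 126 above 0 and 219 below 0 (1.95% of genes), and without 4DayPropi replicate 2 for 529 genes, 253 above 0 and 276 below 0 (2.98%). Both settings called 236 genes in the same direction, 92 above 0 (0.519%) and 144 below 0 (0.812%), together 1.33%. With all arrays, propiconazole changed 1917 genes (10.8%) on day 30 and 2463 (13.9%) on day 4. Without the array it changed 2797 (15.8%) on day 30 and 1664 (9.39%) on day 4. That array is in no day 30 group, so it entered the day 30 calls only through the shared normalization and spread. Within-group SD, as the median over genes, was 0.334 over the 12 arrays and 0.284 over the 11 without it. The late class described below uses these day 30 calls. Across the 17728 genes the changes of the days, which share no array, had a Pearson r of 0.416 (0.359 without the array). Genes are not independent replicates, so this is a description. These calls rest on the spread shared by all 38 arrays. A fit to the 12 arrays alone called 0 genes, with 1269 at an unadjusted p under 0.05, and a fit to the 11 arrays without 4DayPropi replicate 2 called 3, namely Sox4, Susd4 and Sipa1l3, with 1732 at an unadjusted p under 0.05.

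The called genes fell into classes by how the changes of the days related, and because the classes share arrays with the tests that define them, their counts are a description. With all arrays, 150 genes had faded, meaning a change on day 4, a difference of opposite sign and no called change on day 30, and 54 late rises and 94 late falls were called, meaning no called change on day 4, a change on day 30 and a difference of the same sign. Without 4DayPropi replicate 2 the counts were 173 faded and 290 late genes of either direction, and 61 faded and 110 late genes were in the class under both settings. A further 24 genes (28 without the array, 12 under both) had changed on both days in opposite directions. Alas1 was the 1 gene that stayed changed but by less, under both settings. Of the changes called the same way on both days, 520 (538 without the array, 315 under both) had no called difference.

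**Figure D1:**
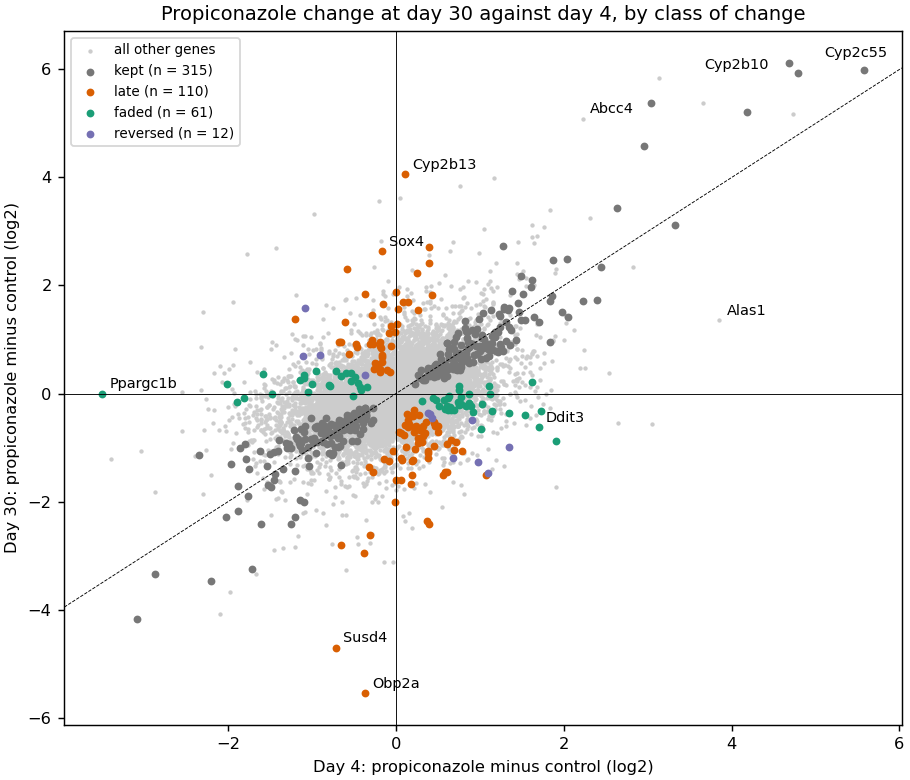
Each point is 1 of 17728 genes, with its propiconazole change on day 4 on the x axis and on day 30 on the y axis, both as log2 differences from control; coloured genes were in the class both with all arrays and without 4DayPropi replicate 2. Late genes lie along the vertical axis (Sox4, Cyp2b13, Susd4, Obp2a) and faded genes along the horizontal axis (Ppargc1b, Ddit3). For Ppargc1b all livers of day 30 read the floor, so a decrease on day 30 could not be read. Genes changed on both days without a called difference lie near the dashed line of equal change (Cyp2c55, Cyp2b10).

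Among drug-metabolising enzymes part of the response was already called on day 4, while the median change was larger on day 30. Of 20 measured enzymes of the CYP2B, CYP2C and CYP3A subfamilies, 10 rose and 1 fell on day 30 (5.29% of all genes rose and 5.53% fell; 11 rose without the array, where 7.16% of all genes rose), and 8 rose and 0 fell on day 4 (7.36% and 6.53%), while the difference was called for 1 of 20, Cyp2b13 (1.95% of all genes). Without 4DayPropi replicate 2, 7 rose and 0 fell on day 4, when 4.48% of all genes rose. The median change of the list was 0.97 on day 30 and 0.38 on day 4 (0.97 and 0.19 without the array). The median difference of the list was 0.06 (0.37 without the array), against -0.02 (0 without the array) over all genes. Cyp2c55, a CYP2C enzyme, stood at 12.69, 12.84 and 12.74 in propiconazole livers and 6.46, 5.95 and 7.86 in control livers on day 30. Its day 4 values were 12.87, 12.93 and 12.14 in propiconazole livers and 6.55, 7.23 and 7.44 in control livers. Treated and control livers did not overlap on either day. Its change was 6.00 ± 0.32 (SE, n = 3 livers a group) on day 30 and 5.57 ± 0.32 on day 4, and the 95% interval of the difference ran from -0.49 to 1.34. Each SE and 95% interval of a change or difference rests on the gene's spread over all 38 arrays, not on the 3 livers of a group alone. Within-group SD was larger in the 12 arrays (median 0.334) than in the other 26 (0.223). Cyp2b10, the classical CAR target, had a change of 5.94 ± 0.45 on day 30 and 4.80 ± 0.45 on day 4, with an interval of the difference from -0.15 to 2.43. All 6 treated arrays read 12.86 to 13.11 for Cyp2b10, near the top of the scale, which limits how large its change could read. Cyp2c65 was at least 16.8-fold higher in propiconazole livers on day 30 and at least 6.23-fold on day 4, with an interval of the difference from 0.26 to 2.61 before adjustment and an adjusted p of 0.197.

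Changes called on both days were not limited to P450 enzymes. Gadd45b, a stress-inducible signalling protein and known CAR partner in mouse liver, was at least 8.63-fold higher in propiconazole livers on day 30 and at least 4.13-fold on day 4. Gstt3, a glutathione S-transferase, had changes of 3.11 ± 0.46 on day 30 and 3.32 ± 0.46 on day 4 (interval of the difference -1.54 to 1.12). Cyp26a1, which degrades retinoic acid, had changes of 1.73 ± 0.48 and 2.39 ± 0.48 (interval -2.05 to 0.73). The actin-binding Nebl, Cyp2c37, Meig1 and the sphingomyelinase Smpd3 made up the other large rises called on both days, with changes of 1.81 to 5.37 on day 30 and 1.86 to 3.04 on day 4. Among falls, Cyp2u1, a P450 of fatty acids, was at least 3.82-fold lower in propiconazole livers on day 30 and had a change of -1.72 ± 0.43 on day 4, and the noncoding Hectd2os was at least 5.65-fold lower on day 30 and had a change of -3.09 ± 0.78 on day 4. Serpina4-ps1, Rdh16f2, Zmynd8, Ttc5, Clec16a, Pde7b, Wfdc2 and Ttc39c had changes of -3.47 to -1.70 on day 30 and -2.87 to -1.49 on day 4. Probe sets were compared only by the sign of the difference between the days, not of the change on either day. That sign was shared by 2 of 5 probe sets of Zmynd8, 1 of 2 of Ttc5 and Clec16a, 1 of 3 of Pde7b and 2 of 3 of Smpd3. The intervals of the difference reached from -3.32 (Hectd2os) to 4.28 (Nebl) over these 20 genes, so similar sizes on the days are not shown by the missing call. Without 4DayPropi replicate 1 the day 4 changes of Hectd2os (-2.23), Rdh16f2 (-1.44), Ttc5 (-1.32), Pde7b (-1.07) and Wfdc2 (-1.18) were not called, and neither were those of Pde7b without day 4 control replicate 1 (-1.59) or 2 (-1.44) and of Ttc5 without day 4 control replicate 2 (-1.58). On day 30 the call of Cyp26a1 ended without control replicate 1 (1.49) or 2 (1.37) or propiconazole replicate 2 (1.33), and that of Wfdc2 without control replicate 3 (-1.48) or propiconazole replicate 2 (-1.37). Meig1's day 4 change was 1.49 without 4DayPropi replicate 2.

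Several large responses were called on day 30 and not on day 4, and the difference itself was called for each gene described as late here. Cyp2b13, a CYP2B enzyme that adult female mouse livers express, stood at 8.96, 8.87 and 10.78 in propiconazole livers and 5.28, 5.76 and 5.38 in control livers on day 30. The day 4 readings were 5.42, 5.96 and 5.46 in propiconazole livers and 5.61, 5.86 and 5.04 in control livers. Only the day 30 propiconazole livers were above background, at least 10.6-fold higher than their controls. The difference between the days was 3.95 ± 0.79 (adjusted p = 0.00647), and 4.13 (adjusted p = 0.00762) without 4DayPropi replicate 2. Sox4, a transcription factor of progenitor and duct cells, stood at 7.93, 8.44 and 8.27 in propiconazole livers and 5.78, 5.43 and 5.54 in control livers on day 30. On day 4 it read 5.50, 6.14 and 5.12 in propiconazole livers and 5.77, 5.86 and 5.62 in control livers. The day 30 propiconazole livers again stood alone, at least 4.23-fold above their controls. All 8 of 8 probe sets of Sox4 shared the sign of the difference between the days. Its difference was 2.80 ± 0.32 (adjusted p = 1.15e-05), and 3.08 (adjusted p = 6.92e-07) without the array, and it was also called in the fit to the 11 arrays (adjusted p = 0.0210).

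Abcc4, an export pump of the basolateral hepatocyte membrane, was the 1 gene with a called rise on both days and a larger one on day 30. It stood at 9.71, 8.84 and 9.22 in propiconazole livers and 4.07, 4.00 and 4.45 in control livers on day 30. Day 4 levels were 7.26, 7.77 and 4.00 in propiconazole livers and 4.00, 4.00 and 4.35 in control livers. On day 4 the 3 propiconazole livers disagreed, with replicate 3 at the floor. The difference was 2.86 ± 0.75 (adjusted p = 0.0401), and 3.58 (adjusted p = 0.00666) without 4DayPropi replicate 2, where the day 4 change was no longer called (1.52, adjusted p = 0.0706). Without 4DayPropi replicate 3 the difference was 1.69, still called. Omitting any 1 of 7 other arrays ended the call, with differences of 2.64 to 2.92 and adjusted p of 0.0673 to 0.0811: the 3 day 4 controls, day 30 control replicates 1 and 2, and day 30 propiconazole replicates 1 and 3.

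Further genes had a called difference above 0. The calcium-activated scramblase Ano6 had a change of 2.70 on day 30 and -1.44 on day 4 (difference 4.14 ± 0.77, adjusted p = 0.00347), and Fbxw9, a substrate receptor of a ubiquitin ligase, a change of 2.58 on day 30 and -1.78 on day 4 (difference 4.36 ± 0.81, adjusted p = 0.00347). In the 6 livers of day 30 Fbxw9 read 7.26 to 8.01 with propiconazole and 4.00 to 5.64 in controls, against 4.00 to 8.74 with propiconazole and 8.09 to 8.35 in controls on day 4, so the control level differed between the days by more than the treated one. The phosphatase Ptpn18 (difference 2.68 ± 0.34, in 1 of 2 probe sets) and Pigu, a subunit of the transamidase that attaches lipid anchors to proteins (2.21 ± 0.45), were also called with every array left out in turn. Plet1 and Tc2n, late rises, and Fzd6, a Wnt receptor whose fall on day 4 (-2.02) had faded, had differences of 2.59, 1.99 and 2.19. Plet1 lost its call without day 30 control replicate 3 (2.15, adjusted p = 0.0518), Fzd6 without day 4 control replicate 1, day 30 control replicate 2 or day 30 propiconazole replicate 3 (2.10 to 2.15, adjusted p = 0.0505 to 0.0517), and Tc2n without day 4 control replicate 1 or 2, 4DayPropi replicate 3, day 30 control replicate 2 or day 30 propiconazole replicate 3 (1.63 to 1.93, adjusted p up to 0.0921). Among their probe sets, 2 of 3 of Plet1 and of Fzd6 shared the direction. Without 4DayPropi replicate 2 all 7 were called (adjusted p up to 0.0219), with differences of 4.76 for Ano6, 4.42 for Fbxw9, 2.32 for Ptpn18, 2.58 for Pigu, 2.64 for Plet1, 2.20 for Tc2n and 2.64 for Fzd6.

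Genes whose expression in mouse liver is higher in males had most of their called decreases on day 30. Of 21 male-biased genes measured, 7 fell and 0 rose on day 30 (5.53% of all genes fell), and 1 fell and 0 rose on day 4 (6.53% of all genes fell; 1 and 1 without the array). The difference was called below 0 for 3 and above 0 for 0, with and without the array (1.24% of all genes below 0, 1.56% without the array). The median difference was -0.39 (-0.71 without the array), against -0.02 over all genes. Obp2a, an odorant-binding lipocalin, stood at 4.05, 4.05 and 4.00 in propiconazole livers and 10.97, 9.46 and 8.32 in control livers on day 30. Its day 4 values were 7.04, 7.49 and 7.58 in propiconazole livers and 7.06, 8.33 and 7.82 in control livers. All day 30 propiconazole livers were at or near the floor, at least 10.9-fold below their controls, while the day 4 groups overlapped. The difference was -5.18 ± 1.09 (adjusted p = 0.0109), and -5.14 (adjusted p = 0.0163) without the array. Susd4, a complement regulator, stood at 4.57, 4.60 and 5.03 in propiconazole livers and 9.80, 9.40 and 9.12 in control livers on day 30. The day 4 readings were 7.33, 5.73 and 7.78 in propiconazole livers and 7.61, 7.29 and 8.11 in control livers. The decrease on day 30 was at least 9.90-fold, and the difference was -3.99 ± 0.64 (adjusted p = 0.00106), or -4.60 (adjusted p = 8.59e-05) without the array. For both genes the control livers were higher on day 30 than on day 4, by 1.85 for Obp2a and 1.77 for Susd4, so the difference combines a lower treated and a higher control level. Ces4a, a carboxylesterase, was the other member called (-2.73 ± 0.60, adjusted p = 0.0149; -2.98, adjusted p = 0.0108, without the array). It lost the call without day 30 propiconazole replicate 3 (-2.40, adjusted p = 0.0522).

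Other male-biased genes changed on day 30 without a called difference. The steroid dehydrogenase Hsd3b5 had a change of -4.09 on day 30 (adjusted p = 0.000713) and -2.10 on day 4 (adjusted p = 0.0663), the fatty acid elongase Elovl3 of -1.54 and -0.50, and the oxysterol hydroxylase Cyp7b1 of -1.40 and -0.68. Major urinary protein genes, the most abundant male-biased transcripts, had changes of -0.51 (Mup10) and -0.12 (Mup3) on day 30, neither called, and their near-identical copies can share probes. Of 16 female-biased genes measured, 5 rose and 1 fell on day 30 (5.29% of all genes rose), and 1 rose and 0 fell on day 4, near the 7.36% of all genes that rose. Cyp2b13 was the 1 called in the difference, where 0.711% of all genes were called above 0 (1.43% without the array). Cyp2b9, a relative of Cyp2b13, stood at 9.13, 9.15 and 10.83 in propiconazole livers and 5.25, 5.0 and 7.30 in control livers on day 30. On day 4 it read 7.75, 7.83 and 6.89 in propiconazole livers and 7.73, 6.61 and 5.84 in control livers. The groups were apart on day 30 and overlapped on day 4, but the difference of 3.09 ± 0.98 was not called (adjusted p = 0.0923).

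**Figure D2:**
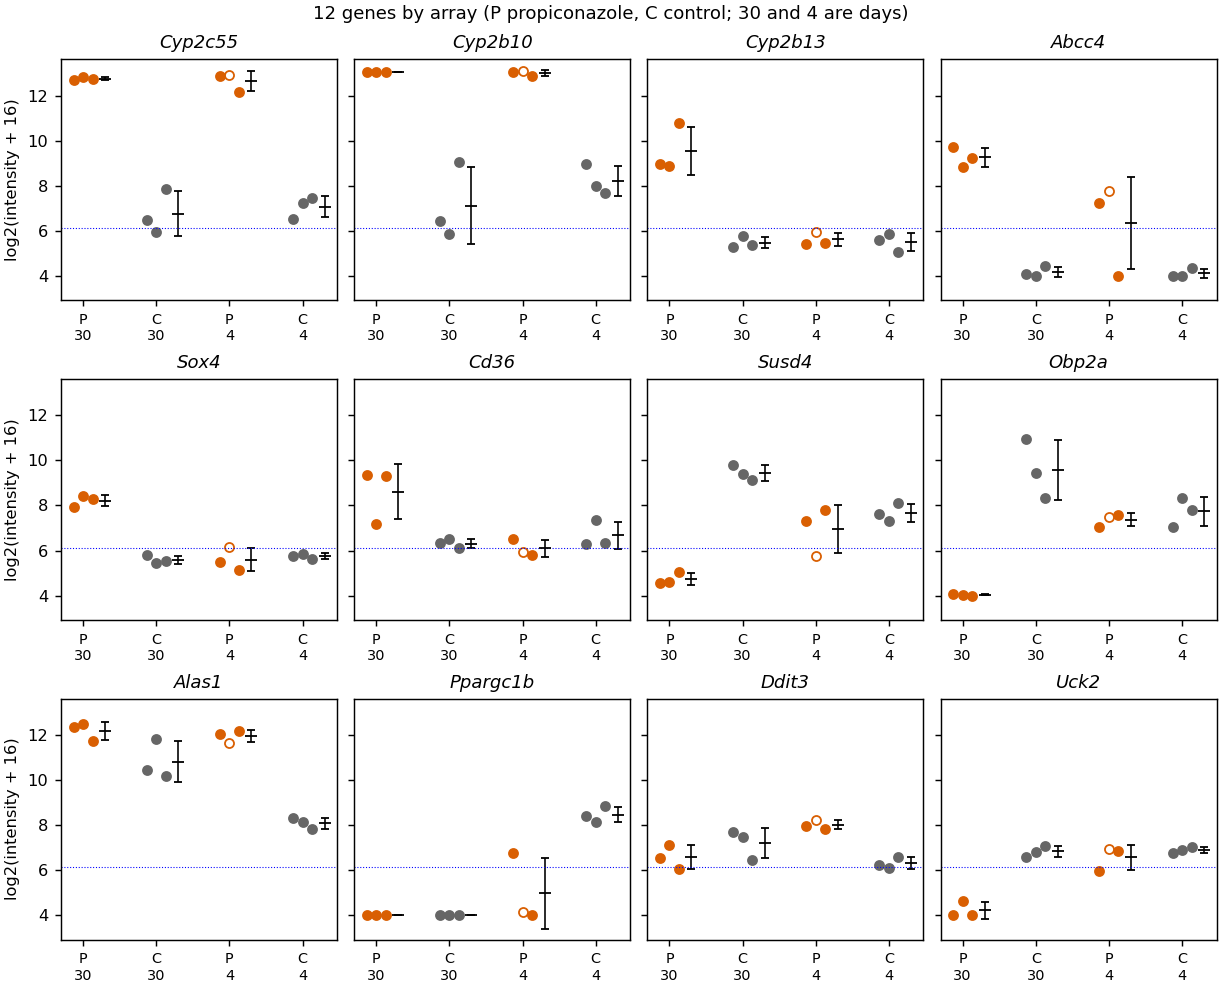
Each panel shows 1 gene, with the normalized log2(intensity + 16) of 3 propiconazole livers (P, orange) and 3 control livers (C, grey) on day 30 and on day 4; the bar is the mean ± SD, the open circle is 4DayPropi replicate 2 and the dotted line is background (6.13). Cyp2c55 and Cyp2b10 are separated from controls on both days, Cyp2b13, Sox4, Susd4 and Obp2a on day 30, and for Alas1 and Ppargc1b the control livers themselves differ between the days.

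Other called differences below 0 were spread over unrelated functions. Uck2, a uridine-cytidine kinase, stood at 4.00, 4.64 and 4.00 in propiconazole livers and 6.60, 6.83 and 7.08 in control livers on day 30. Day 4 levels were 5.95, 6.96 and 6.84 in propiconazole livers and 6.78, 6.88 and 7.02 in control livers. Its day 30 level was at least 1.63-fold lower, the control livers were alike on both days, and the difference was -2.31 ± 0.41 (adjusted p = 0.00238; 5 of 6 probe sets shared the direction). Aldh16a1, an aldehyde dehydrogenase family member, was at least 4.72-fold lower in propiconazole livers on day 30 and had no called change on day 4 (-0.66), with a difference of -2.16 ± 0.48 (adjusted p = 0.0161). Lama3, a laminin chain, had a difference of -2.81 ± 0.54 (adjusted p = 0.00484), shown by 1 of 2 probe sets. Nck1, an adaptor protein of receptor signalling, was lower in propiconazole livers on day 30 (-1.48) and higher on day 4 (1.10), a difference of -2.57 ± 0.37 (adjusted p = 0.000177) shared by 3 of 3 probe sets. Car11 and Rab11fip1 had differences of -2.59 and -2.42, and Rmnd5b, whose rise on day 4 (1.91) had faded, one of -2.80. Rmnd5b lost the call without day 4 control replicate 2, day 30 control replicate 1 or day 30 propiconazole replicate 2 (adjusted p up to 0.0821), Car11 without day 4 control replicate 3 or day 30 propiconazole replicate 3 (up to 0.0562), and Rab11fip1, shown by 1 of 2 probe sets, without day 4 control replicate 1 or day 30 propiconazole replicate 1 (up to 0.0575). Without 4DayPropi replicate 2 all 7 genes of this paragraph were called (adjusted p up to 0.0473), with differences of -2.14 for Uck2, -2.33 for Aldh16a1, -2.76 for Lama3, -2.35 for Nck1, -2.80 for Car11, -2.14 for Rab11fip1 and -2.62 for Rmnd5b.

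Alas1, whose enzyme sets the rate at which heme is made, kept a smaller rise on day 30. It stood at 12.36, 12.48 and 11.72 in propiconazole livers and 10.43, 11.85 and 10.20 in control livers on day 30. Its day 4 values were 12.03, 11.64 and 12.17 in propiconazole livers and 8.31, 8.15 and 7.83 in control livers. Treated levels were alike on both days, 0.24 higher on day 30, while control levels were 2.73 higher on day 30. The change was 1.36 on day 30 (adjusted p = 0.0395) and 3.85 on day 4 (adjusted p = 1.1e-06), and the difference was -2.49 ± 0.61 (adjusted p = 0.0294), or -2.64 (adjusted p = 0.0242) without 4DayPropi replicate 2. Without day 4 control replicate 2 or 3, day 30 control replicate 2 or day 30 propiconazole replicate 3 the difference was -1.99 to -2.52 and no longer called (adjusted p = 0.0532 to 0.0916). None of the other 10 heme genes measured was called in the difference.

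Ppargc1b, a coactivator of mitochondrial genes, showed the control side even more sharply. It was at the floor of 4.00 in all 6 livers of day 30, and read 6.78, 4.13 and 4.00 in propiconazole livers and 8.41, 8.16 and 8.84 in control livers on day 4. With the day 30 controls at the floor, a decrease on day 30 could not be read. A faded decrease and a loss of control signal cannot be told apart for this gene. The change was 0.00 on day 30 and -3.50 on day 4 (adjusted p = 4.17e-06), and the difference of 3.50 ± 0.60 (adjusted p = 0.00193; 3.09, adjusted p = 0.00617, without the array) came with a control level 4.47 lower on day 30 and a treated level 0.97 lower. Of the 236 genes whose difference was called under both settings, 74 (31.4%) differed more between the days in control livers than in propiconazole livers, and among the 61 faded genes it was 29 (47.5%). Over all genes tested the share was 41.5%. Among the 110 late genes it was 22 (20%). The sides had opposite signs in 190 of the 236 genes, against 6964 of the 17728 genes tested, but a gene with opposite signs is more easily called, so the first count is a description. Control livers were not exposed, and anything else that differed between the animals of the days cannot be told apart from the time point.

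**Figure D3:**
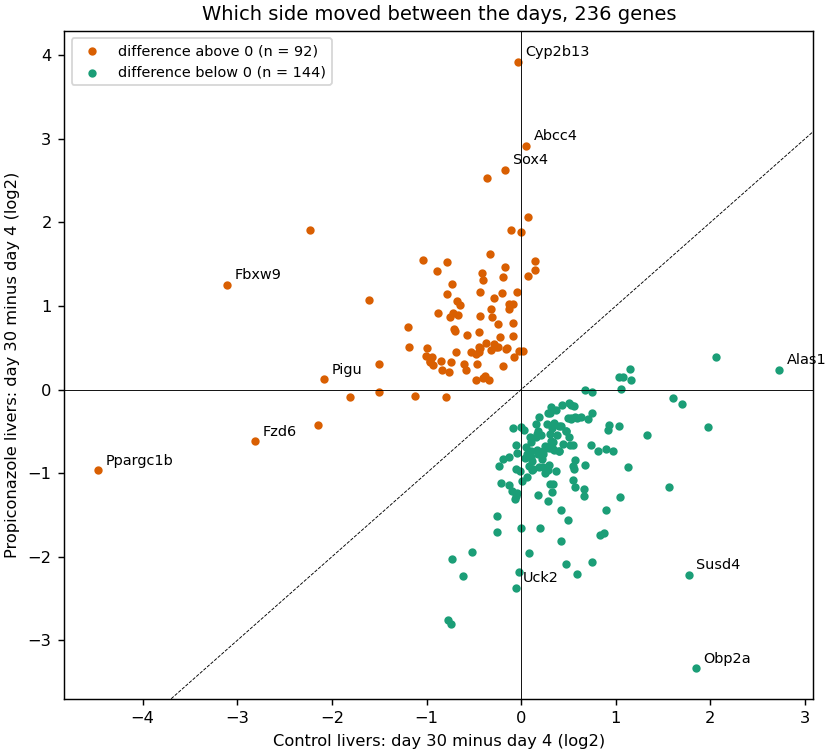
Each point is 1 of the 236 genes whose difference was called with all arrays and without 4DayPropi replicate 2, with the day 30 minus day 4 difference of control livers on the x axis and of propiconazole livers on the y axis, in log2 units. Genes near the vertical axis (Cyp2b13, Abcc4, Sox4, Uck2) differed between the days in propiconazole livers, genes near the horizontal axis (Ppargc1b, Alas1, Fzd6, Pigu) in control livers, and Susd4 and Obp2a in both.

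Chaperones of the heat shock response had called rises on day 4 and none on day 30. Of 18 heat shock genes measured, 0 rose and 0 fell on day 30, and 9 rose and 0 fell on day 4, when 7.36% of all genes rose (8 and 0 without the array, where 4.48% of all genes rose; 7 rose under both settings). The median change was -0.01 on day 30 and 1.0 on day 4. In 17 of 18 genes the day 30 change was the lower, with a median difference of -0.93 (-0.90 without the array), against -0.02 over all genes. Only 2 of 18 passed the test of that difference, both below 0, and 1 of 18 without the array. Over all genes 1.24% were called below 0 (1.56% without the array). All 18 share the same 12 livers. The treated livers' median was 0.42 lower on day 30 than on day 4, and the control livers' median 0.49 higher. Hspa4, an HSP110 family chaperone that acts as an exchange factor of HSP70, stood at 9.18, 9.24 and 9.07 in propiconazole livers and 9.48, 9.50 and 9.45 in control livers on day 30. The day 4 readings were 9.95, 9.56 and 8.98 in propiconazole livers and 8.90, 8.61 and 9.01 in control livers. On day 30 the treated livers lay below the controls, and on day 4 the groups overlapped at 1 array. The difference was -0.97 ± 0.19 (adjusted p = 0.00758), or -0.94 (adjusted p = 0.0120) without the array, and 2 of 4 probe sets shared the direction.

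The HSP40 co-chaperone Dnajb4 had a change of 0.02 on day 30 and 1.42 on day 4, a difference of -1.40 ± 0.36 (adjusted p = 0.0380). It was not called without 4DayPropi replicate 2 (-1.26, adjusted p = 0.0678), the 3 day 4 controls, day 30 control replicates 1 and 2 or day 30 propiconazole replicate 3, each left out alone (adjusted p up to 0.124). Hspa1b, the inducible HSP70, stood at 11.67, 12.74 and 10.18 in propiconazole livers and 12.10, 11.21 and 10.14 in control livers on day 30. On day 4 it read 11.63, 12.46 and 12.63 in propiconazole livers and 9.46, 9.57 and 10.08 in control livers. The groups overlapped on day 30 and not on day 4, and the difference of -2.15 ± 0.87 was not called (adjusted p = 0.202). Hsph1, another HSP110 chaperone, had changes of -0.22 on day 30 and 1.61 on day 4 and a difference of -1.83 ± 0.77 (adjusted p = 0.221). Dnajb1 and Dnaja1, HSP40 partners of HSP70, had changes of 0.13 and 0.17 on day 30 and of 1.46 and 1.05 on day 4, called on day 4 only; their differences of -1.33 and -0.89 were not called.

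Genes of the unfolded protein and integrated stress response also had called rises on day 4. Of 27 measured, 0 rose and 0 fell on day 30 (0 and 1 without the array), and 8 rose and 0 fell on day 4 (8 and 0 without the array, 5 under both), when 7.36% of all genes rose (4.48% without the array). The difference was called for 2, both below 0 and under both settings (1.24% of all genes below 0, 1.56% without the array). The median difference was -0.37 (-0.54 without the array), and it was below 0 for 21 of 27 genes (23 of 27 without the array). Ddit3, the stress transcription factor CHOP, stood at 6.56, 7.13 and 6.06 in propiconazole livers and 7.69, 7.47 and 6.47 in control livers on day 30. Day 4 levels were 7.98, 8.24 and 7.83 in propiconazole livers and 6.22, 6.12 and 6.61 in control livers. Treated livers were above controls without overlap on day 4, and the groups overlapped on day 30. The difference was -2.33 ± 0.43 (adjusted p = 0.00323), or -2.23 (adjusted p = 0.00799) without the array, with the treated side 1.44 lower and the control side 0.89 higher on day 30. Dnajb9, a co-chaperone of the endoplasmic reticulum, had changes of 0.21 on day 30 and 1.61 on day 4, a difference of -1.40 ± 0.34 (adjusted p = 0.0249; -1.29, adjusted p = 0.0444, without the array). It lost the call without day 4 control replicate 1 or 2, day 30 control replicate 2 or day 30 propiconazole replicate 3 (-1.22 to -1.35, adjusted p = 0.0614 to 0.0841). Creld2 and Syvn1, a secreted and a membrane protein of endoplasmic reticulum quality control, had differences of -1.61 and -1.27 that were not called (adjusted p = 0.329 and 0.271).

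To show the regulatory sequence of these lists, the promoter windows of members that hold the response element of their pathway are shown, taken from RefSeq (GRCm38.p6) as 250 bases before to 50 bases after the start of transcription. The heat shock element was searched as GAA, any 2 bases, TTC, any 2 bases and GAA, and the endoplasmic reticulum stress element as CCAAT, any 9 bases and CCACG, each on both strands. The heat shock element was found in 4 of 15 heat shock genes with a window (Chordc1, Hspd1, Hspe1 and Hsph1) and in 0 of 25 unfolded protein response genes, against 0.662% of 27025 genes. The endoplasmic reticulum stress element was found in 7 of 25 unfolded protein response genes (Calr, Creld2, Dnajc3, Hsp90b1, Hspa5, Pdia6 and Syvn1) and in 0 of 15 heat shock genes, against 0.137% of genes. The 4 windows are those of the 2 genes of each list that hold its element and had the largest differences, and capitals mark the element. In Chordc1 3 overlapping matches form 1 run of capitals across the start of transcription, and in Hsph1 the element lies 16 to 28 bases into the transcript of this start. A match is a description of the letters in the window, and the called genes Hspa4, Dnajb4, Ddit3 and Dnajb9 hold no match in theirs.
Hsph1 (chr5:149636266-149636565, minus strand): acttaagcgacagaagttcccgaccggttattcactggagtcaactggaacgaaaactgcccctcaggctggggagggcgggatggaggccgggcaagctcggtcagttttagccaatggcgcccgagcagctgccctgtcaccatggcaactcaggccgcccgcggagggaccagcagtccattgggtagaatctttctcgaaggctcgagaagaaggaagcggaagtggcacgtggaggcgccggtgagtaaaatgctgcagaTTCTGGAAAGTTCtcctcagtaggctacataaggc
Chordc1 (chr9:18292017-18292316, plus strand): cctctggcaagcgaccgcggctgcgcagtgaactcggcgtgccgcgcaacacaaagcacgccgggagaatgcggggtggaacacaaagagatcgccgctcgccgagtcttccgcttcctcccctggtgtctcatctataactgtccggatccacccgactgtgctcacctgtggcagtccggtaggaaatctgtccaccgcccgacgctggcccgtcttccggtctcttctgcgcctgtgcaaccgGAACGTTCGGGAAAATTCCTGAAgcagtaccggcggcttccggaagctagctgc
Creld2 (chr15:88819396-88819695, plus strand): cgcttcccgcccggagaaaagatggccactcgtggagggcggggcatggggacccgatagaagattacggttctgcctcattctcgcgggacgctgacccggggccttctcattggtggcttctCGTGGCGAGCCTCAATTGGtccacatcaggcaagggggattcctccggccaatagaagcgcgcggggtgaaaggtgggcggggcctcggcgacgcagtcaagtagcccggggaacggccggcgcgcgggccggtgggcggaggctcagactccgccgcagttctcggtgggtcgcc
Syvn1 (chr19:6046326-6046625, plus strand): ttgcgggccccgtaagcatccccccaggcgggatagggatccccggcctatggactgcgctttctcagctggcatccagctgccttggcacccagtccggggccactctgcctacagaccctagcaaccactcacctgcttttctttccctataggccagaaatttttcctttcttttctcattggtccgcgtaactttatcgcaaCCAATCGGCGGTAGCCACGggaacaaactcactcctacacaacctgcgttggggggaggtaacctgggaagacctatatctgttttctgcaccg

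**Figure D4:**
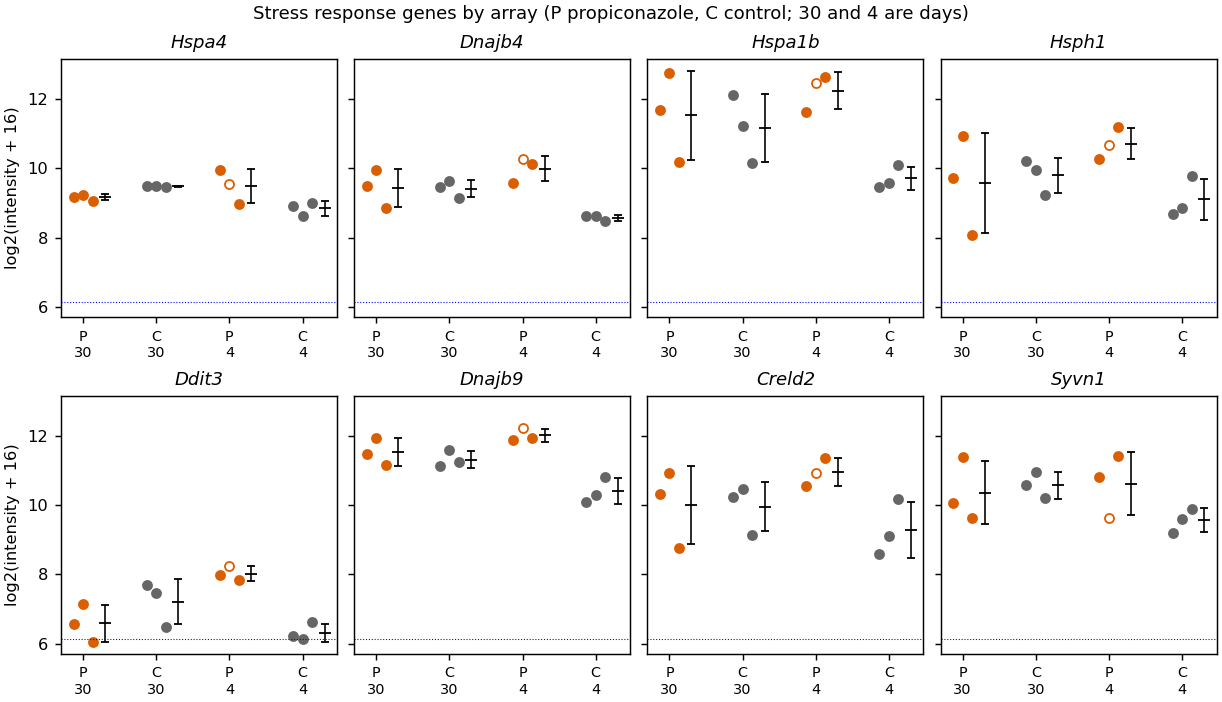
Each panel shows 1 stress response gene, with the normalized log2(intensity + 16) of 3 propiconazole livers (P, orange) and 3 control livers (C, grey) on day 30 and on day 4; the bar is the mean ± SD, the open circle is 4DayPropi replicate 2 and the dotted line is background (6.13). In every panel the mean of propiconazole livers is above that of controls on day 4, and on day 30 the difference of the means lies between -0.63 (Ddit3) and 0.38 (Hspa1b).

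Among lipid oxidation genes the called differences lay above 0. Of 34 measured genes that PPAR-alpha controls or that oxidise fatty acids, 5 rose and 2 fell on day 30. Without the array, 5 rose and 6 fell. Over all genes 5.29% rose and 5.53% fell on day 30 (7.16% and 8.61% without the array). On day 4, 0 rose and 9 fell under both settings, when 6.53% of all genes fell (4.91% without the array). The difference was called for 4 of 34, all above 0 (0.711% of all genes), and for 3 of 34 without the array (1.43%). The median difference was 0.31 (0.28 without the array). Cd36, a fatty acid importer, stood at 9.37, 7.20 and 9.29 in propiconazole livers and 6.32, 6.51 and 6.10 in control livers on day 30. Its day 4 values were 6.50, 5.96 and 5.81 in propiconazole livers and 6.30, 7.38 and 6.33 in control livers. Day 30 propiconazole livers were above their controls without overlap, and the day 4 groups overlapped. The difference was 2.89 ± 0.72 (adjusted p = 0.0310), or 2.83 (adjusted p = 0.0419) without the array, in 3 of 3 probe sets. It lost the call without day 4 control replicate 2, day 30 control replicate 3 or day 30 propiconazole replicate 1 or 3 (2.52 to 2.79, adjusted p = 0.0527 to 0.0922).

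The other 3 members called were peroxisomal or mitochondrial. Pex11a, a peroxisome division factor, had a change of 0.36 on day 30 and -1.59 on day 4. Its difference was 1.95 ± 0.49 (adjusted p = 0.0344) with all arrays and 1.08 (adjusted p = 0.0133) without 4DayPropi replicate 2, which alone read 6.99 where all other arrays read 9.52 to 10.61. It was not called without day 4 control replicate 1 or 3, day 30 control replicate 2 or day 30 propiconazole replicate 3 (1.79 to 1.93, adjusted p = 0.0524 to 0.0872). Ech1, a dienoyl-CoA isomerase, had a difference of 0.72 ± 0.20 (adjusted p = 0.0474; 0.84, adjusted p = 0.0193, without the array), and Acaa1b, a peroxisomal thiolase, of 0.67 ± 0.17 (adjusted p = 0.0344; 0.53, adjusted p = 0.0721, without the array). Ech1 lost the call without any of 8 arrays (the 3 day 30 controls, day 30 propiconazole replicates 1 and 3, day 4 control replicates 1 and 2, and 4DayPropi replicate 1, adjusted p up to 0.111), and Acaa1b without 4DayPropi replicate 2, day 4 control replicates 1 and 3, day 30 control replicates 1 and 2 and day 30 propiconazole replicate 3 (up to 0.0921). Vnn1, a pantetheinase and PPAR-alpha target, had changes of 1.90 on day 30 and -0.16 on day 4, a difference of 2.05 ± 0.74 that was not called (adjusted p = 0.143).

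Sterol synthesis is the pathway of the enzyme that triazole fungicides block. Of 20 cholesterol biosynthesis genes, 0 rose and 0 fell on day 30 (0 and 2 without the array), and 3 rose and 2 fell on day 4 (1 and 1 without the array), when 7.36% of all genes rose and 6.53% fell. The difference was called below 0 for 2 with all arrays (1.24% of all genes) and for 0 of 20 without 4DayPropi replicate 2. The median difference was -0.42 (-0.51 without the array), with the control livers' median 0.53 higher and the treated livers' 0.03 lower on day 30. Sqle, the squalene epoxidase, had a change of -0.39 on day 30 and 1.35 on day 4 (difference -1.74 ± 0.43, adjusted p = 0.0294; -1.38, adjusted p = 0.0648, without the array). Cyp51, the mammalian sterol 14-demethylase, had a change of -0.71 on day 30 and 0.68 on day 4 (difference -1.38 ± 0.35, adjusted p = 0.0331; -1.07, adjusted p = 0.0731, without the array). Both calls also ended without day 4 control replicate 2 or 3 or day 30 control replicate 2 or 3, Sqle's without day 30 propiconazole replicate 2 and Cyp51's without day 30 propiconazole replicate 3 (adjusted p = 0.0526 to 0.0872).

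Among 41 cell cycle genes, 22 above background, 3 rose and 2 fell on day 30 (3 and 3 without the array), when 5.29% of all genes rose. On day 4, 9 rose and 1 fell (7.36% of all genes rose), and 4 rose and 0 fell without the array (4.48%). The median difference was -0.37 (-0.39 without the array). Over all genes the difference was called below 0 for 1.24% (1.56% without the array). The helicase subunit Mcm4 was the 1 called in the difference with all arrays (-1.19 ± 0.33, adjusted p = 0.0484; -0.85, adjusted p = 0.110, without the array), and the kinesin Kif22 the 1 called without it (-1.38, adjusted p = 0.0270). Mcm4's call also ended without any 1 of the 3 day 4 controls, day 30 control replicates 2 and 3 and day 30 propiconazole replicates 2 and 3 (adjusted p up to 0.112). Glutathione S-transferases (20 measured), P450 electron partners (17), acute phase proteins (32), bile acid synthesis (16), respiratory chain subunits (36) and proteasome subunits (31) had no called difference under either setting. Of the proteasome subunits 4 of 31 rose on day 30 and 11 of 31 on day 4 (5.29% and 7.36% of all genes), but 8 of 31 on each day without 4DayPropi replicate 2 (7.16% and 4.48%). Of 33 fatty acid and triglyceride synthesis genes, 28 had a difference above 0 (median 0.38) but 0 were called. Arg1, the last enzyme of the urea cycle, was the 1 of 19 periportal genes called, where 1.24% of all genes were called below 0. Its difference was -0.38 (adjusted p = 0.0402), or -0.35 (adjusted p = 0.0511) without the array. The call also ended without day 4 control replicate 1 or 2, day 30 control replicate 1 or 2 or day 30 propiconazole replicate 2 or 3 (adjusted p up to 0.110).

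Markers of other liver cells were compared in the same way. Kupffer cell and macrophage markers had a median difference of 0.43 (0.82 without the array), and 0 of 18 were called under either setting. Their summed level, on the log2 scale, was 13.3 to 14.1 in propiconazole livers and 13.04 to 13.39 in control livers on day 30, against 12.5 to 13.2 in propiconazole livers and 12.6 to 12.9 in control livers on day 4. Mpeg1 was the 1 marker called on day 30 with all arrays (joined by Adgre1 without 4DayPropi replicate 2), and Marco was at the floor in all control livers. In bulk tissue, more cells of a type and more RNA per cell cannot be told apart. Among 12 neutrophil and monocyte markers, Itgam was the 1 called in the difference, where 1.24% of all genes were called below 0. Its difference was -1.24 ± 0.33 (adjusted p = 0.0444), or -1.12 (adjusted p = 0.0774) without the array, and all its 12 readings were below background. Its call also ended without day 4 control replicate 1 or 2, day 30 control replicate 1 or 2 or day 30 propiconazole replicate 3 (adjusted p up to 0.125). The summed level of that list was 10.97 to 12.85 in propiconazole livers and 9.19 to 9.43 in control livers on day 30, against 9.5 to 14.1 in propiconazole livers and 8.9 to 9.6 in control livers on day 4. The day 4 propiconazole livers had the widest range of the 4 groups. The part of these markers in the results was not tested. Of 13 biliary markers, 7 above background, 4 rose and 0 fell on day 30 (5 and 0 without the array), with a median change of 0.43. On day 4, 3 rose and 0 fell (2 and 0 without the array). Over all genes 5.29% rose on day 30 and 7.36% on day 4 (7.16% and 4.48% without the array). Sox4 was the 1 called in the difference, where 0.711% of all genes were called above 0 (1.43% without the array). The duct keratins Krt7 and Krt19 averaged 4.00 in day 30 propiconazole livers. The summed biliary level was 12.90 to 12.99 in propiconazole livers and 12.01 to 12.51 in control livers on day 30, against 12.2 to 13.3 in propiconazole livers and 12.3 to 12.4 in control livers on day 4.

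**Figure D5:**
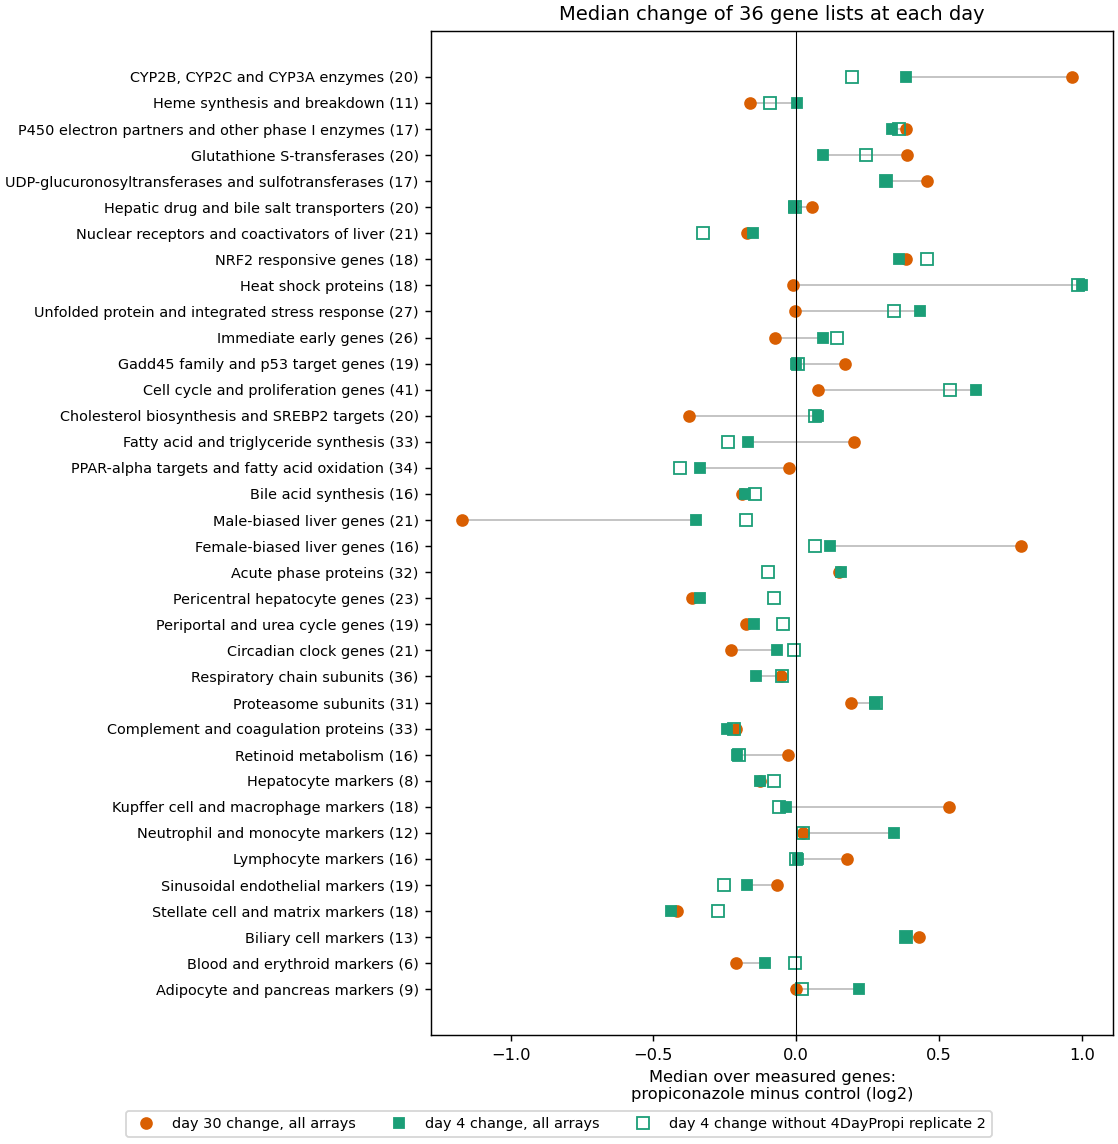
For each of 36 gene lists (number of measured genes in brackets), the median propiconazole minus control change on day 30 (orange circle) and day 4 (green square; open square without 4DayPropi replicate 2) is shown in log2 units. Heat shock proteins go to -0.01 on day 30, against 1.0 on day 4, male-biased liver genes stand at -1.17 on day 30, against -0.35 on day 4.

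How far the result rests on 4DayPropi replicate 2 can be read from the genes that only 1 setting called. With all arrays alone, 109 genes were called, and without the array alone, 293. The largest of the first kind were Atg16l2 (3.77), Entpd2 (2.48), Ppie (2.44), Prr29 (2.21), Tmem131l (2.16) and Tacr3 (2.04) above 0, and Pla1a (-2.66), Mcm3ap (-2.23), Pfkfb3 (-2.11), Mybpc3 (-2.05), Golm1 (-1.90) and Arl2bp (-1.90) below 0. Without the array their differences kept the sign and ranged from 1.60 to 2.91 and from -2.37 to -1.29, with adjusted p of 0.0525 to 0.113. Each of these 12 calls also ended without at least 1 of the other 11 arrays (adjusted p up to 0.108). The largest of the second kind, with their values without the array, were Fgfrl1 (4.59), Ankrd24 (3.49), Glmn (2.73), Pml (2.58), Ntn4 (2.30) and Ctf1 (2.28) above 0, and Aanat (-4.55), Enho (-2.72), Pcp4l1 (-2.53), Tmem120b (-2.48), Meis3 (-2.45) and Lman2l (-2.26) below 0. Enho, the gene of the secreted peptide adropin, stood at 6.17, 5.22 and 5.27 in propiconazole livers and 9.70, 9.56 and 8.45 in control livers on day 30. The day 4 readings were 7.85, 5.39 and 8.97 in propiconazole livers and 9.50, 9.61 and 9.04 in control livers. Here 4DayPropi replicate 2, the second value listed for that group, stood at the level of the day 30 treated livers, and the gene was called as lower on both days with it and as a late decrease without it.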

How the data were processed

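Liver RNA of 12 mice was measured on Affymetrix mouse arrays, within a study of 38 arrays. The authors deposited 1 linear intensity per probe set and array, per the file headers, with 21.15% of values below 0. The software and scaling behind these values are not given in the sources used here. Arrays give no read depth, and their number limits the precision.

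The deposited intensities of the 38 arrays were first quantile normalized. Values below 0 were then set to 0, 16 was added and log2 was taken. Each gene was represented by its brightest probe set among those with 1 symbol in the platform annotation (34945 of 45101 probe sets), which left 17728 genes. The test was limma 3.58.1 (R 4.3.3) with an intensity trend, 1 mean per group over all 38 arrays and no replicate block (28 residual and 2.91 prior degrees of freedom), with Benjamini-Hochberg adjustment over all genes. The labels call the livers biological replicates. Deviations from the group means correlated at r = -0.11 to 0.16 between same-numbered arrays (18 pairs, 4 of them over 0.1). Between differently numbered arrays r was -0.19 to 0.18. With 3 arrays a group, these values cannot show whether the numbers pair the livers. The fit was tried on simulated normal values with known differences and the same spread in every group, which does not check the calls under the wider spread of 4DayPropi.

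The 36 gene lists (745 of 834 listed genes measured) and the comparison were chosen with earlier results of these data known. Genes were named by these rules: the 12 largest differences each way called with and without 4DayPropi replicate 2, by the smaller value; the 6 largest each way called under 1 setting only; the 10 largest rises and falls called on both days; and up to 5 members a list. Genes known only by clone names were left out. Sipa1l3, Mpeg1, Adgre1, Krt7, Krt19, Kif22, Elovl3, Mup10, Mup3, Vnn1, Dnajb1 and Dnaja1 fall outside these rules and were named after their values were seen. Alternatives were the deposited scale, median centring, other sets of arrays in the fit, other pseudocounts, a background filter, the mean of probe sets, array weights, a replicate block, no trend and each array left out.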

Additional observations from a re-analysis of the deposited data

Results flagged for a closer look

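Each value here is the propiconazole change on day 30 minus that on day 4, in log2 units with all arrays, for a gene where limma's test of that difference between the days passed an adjusted p of 0.05. Called also without 4DayPropi replicate 2 were Fbxw9 (4.36), Ano6 (4.14), Cyp2b13 (3.95), Ppargc1b (3.50), Abcc4 (2.86), Cd36 (2.89), Sox4 (2.80), Plet1 (2.59), Ptpn18 (2.68), Pigu (2.21), Fzd6 (2.19) and Tc2n (1.99) above 0. Below 0 they were Obp2a (-5.18), Susd4 (-3.99), Lama3 (-2.81), Ces4a (-2.73), Rmnd5b (-2.80), Car11 (-2.59), Alas1 (-2.49), Nck1 (-2.57), Ddit3 (-2.33), Aldh16a1 (-2.16), Uck2 (-2.31) and Rab11fip1 (-2.42).

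Called with all arrays and not without 4DayPropi replicate 2 were Atg16l2 (3.77), Entpd2 (2.48), Ppie (2.44), Prr29 (2.21), Tmem131l (2.16) and Tacr3 (2.04) above 0, and Pla1a (-2.66), Mcm3ap (-2.23), Pfkfb3 (-2.11), Mybpc3 (-2.05), Golm1 (-1.90) and Arl2bp (-1.90) below 0.

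Members of the gene lists called with all arrays were Pex11a (1.95), Ech1 (0.72) and Acaa1b (0.67) above 0, which belong to lipid oxidation, and Dnajb4 (-1.40), Hspa4 (-0.97), Dnajb9 (-1.40), Mcm4 (-1.19), Sqle (-1.74), Cyp51 (-1.38), Arg1 (-0.38) and Itgam (-1.24) below 0.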

How the results depend on the processing

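All 47 called differences named in the report kept their sign in every alternative setting that tested them, and 15 of 47 kept their call whichever of the 12 arrays was left out. The count of called differences was 345. In the fit to the 12 arrays it was 0 (71 genes called on day 4, 101 on day 30, 0 faded, 23 with no called difference between equal-sign changes, 0 late). Normalizing those 12 arrays alone as well gave 8 (76, 94, 3, 22 and 5 in the same order), the 18 conazole arrays gave 4 (220, 290, 1, 43 and 3), and array weights gave 27 (98 on day 4, 3 faded, 42 kept, 22 late), where 4DayPropi replicate 2 had a weight of 0.0704. Chosen after seeing the data, fits without 4DayPropi replicate 2 gave 3 from 11 arrays (69, 452, 1, 27 and 2) and 7 from 17 conazole arrays (213, 790, 1, 64 and 5). Within-group SD was larger in the 12 arrays (median 0.334) than in the other 26 (0.223).

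Values as deposited gave 101 calls, 78 above 0 and 23 below, with the median of all genes at 0.15, 1072 calls on day 30, 44 faded, 320 kept and 42 late. On day 4 they gave 2595 calls, 225 higher and 2370 lower. Median centring gave 92, 49 above 0 and 43 below, with 37 faded, 308 kept and 41 late, and on day 4 588 higher and 1202 lower. The mean of all probe sets gave 97 faded. Why these counts moved was not tested. With the replicate block 250 differences were called (91 above 0 and 159 below), and 2269 genes on day 4 and 1731 on day 30. Other settings (pseudocounts of 4 and 64, the background filter, no trend) gave 321 to 392.

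Leaving out single arrays gave 1.8e+02 called differences (61 above 0 and 120 below, without 30DayPropi replicate 3) to 1234 (without 4DayPropi replicate 1), with 884 without 4DayPropi replicate 3, 228 and 197 without 4DayConazoleControl replicates 1 and 2, and 206 without 30DayConazoleControl replicate 2. Over these the day 4 calls ran from 1525 to 3850, day 30 calls from 1276 to 2797, faded genes from 69 to 710, kept genes from 366 to 815 and late genes from 86 to 337. Genes near background, where a value below 0 becomes 4.00, have changes on a day that understate the true size. Where the floor limits the change of 1 day only, the difference between the days can be too large or too small.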
